A study of Mus musculus with 12 samples.

Results

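The 7 genes described here are *Arrb1* and *Arrb2*, which encode the β-arrestins, and *Grk2*, *Grk3*, *Grk4*, *Grk5*, and *Grk6*, which encode the G protein-coupled receptor kinases (GRKs) that are found outside the retina. They were chosen by symbol, and they are 7 of the 55418 genes counted in the brainstem of 12 mice. A receptor that has been activated by its ligand, such as the μ opioid receptor, is phosphorylated on its cytoplasmic side by a GRK. A β-arrestin then binds the phosphorylated receptor, uncouples it from its G protein, and links it to clathrin and the adaptor AP-2, which carry it into the cell. This sequence is a textbook route of receptor desensitization and internalization and is widely studied in opioid tolerance and withdrawal.

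The mice were outbred CFW (Swiss Webster) mice with no engineered allele, collected at P15. Morphine-exposed mice (3 females and 3 males) had been injected with morphine, 15 mg/kg, 2 times daily from P1 through P14, and saline control mice (3 males and 3 females) had been injected with saline on the same days. All groups were therefore handled and injected alike, and tissue was collected 16 h after the last injection, during spontaneous withdrawal in the morphine-exposed mice. Each mouse gave 1 poly-A library, litters were mixed between treatments, and the dam of each mouse is not in the labels. The libraries are named by treatment, sex, and the replicate number of the label.

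Between 27850565 and 48097947 counts per library fell on genes, with a median of 33214511, and all 12 libraries shared 1 lane. The labels give brainstem, whereas the deposited extraction text names spinal cords. Among genes of the brainstem, *Slc6a5*, the glycine transporter of glycinergic neurons, was between 479.4 and 637.7 CPM (counts scaled to the library size) over the 12 libraries, *Tph2*, of serotonin synthesis, between 20.2 and 41.65, and *Dbh*, of noradrenaline synthesis, between 3.34 and 9.62. A list of 5 forebrain genes summed to between 7.93 and 14.3 CPM, and the 4 Hox genes of the lumbar cord stayed under 0.1 CPM each. Some libraries stood apart. In the library labelled morphine male 6, *Xist* was at 379.9 CPM, against at most 2.71 in the other males and at least 546.8 in the females, and *Ddx3y* was at 12.8 CPM, against at least 117.8 in the other males and at most 0.729 in the females. It was kept in its labelled group. The libraries also differed in how their levels followed the GC content of genes. This was measured as the GC gap, which is the median deviation (log2) from the 12-library mean of the 3765 genes with the highest GC content minus that of the 3765 genes with the lowest. The gap was 0.95 in saline male 2, 0.75 in saline male 1, and -0.98 in saline male 3, so the saline males held both ends of the range. It was 0.48 in morphine male 6 and between -0.53 and 0.05 in the other 8 libraries.

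The 7 genes differ in the property that the GC gap follows. GC content was taken over all annotated transcripts of a gene, weighted by their length. The transcripts of *Grk2* (56.6% GC), *Grk6* (56.5%), and *Arrb2* (56.4%) lie above 54.5%, where the genes of highest GC content begin. Those of *Grk4* (45.0%) lie below 45.3%, where the genes of lowest GC content end. *Arrb1* (53.5%), *Grk3* (50.8%), and *Grk5* (48.6%) lie between them. In the coding sequence *Grk4* stands apart most at the codon position that is most free to vary. At that position 41.9% of its codons end in G or C, against 72.9% in *Grk2*, 69.2% in *Grk3*, and 68.7% in *Arrb2*. The value is 67.5% in *Grk6*, 67.4% in *Arrb1*, and 60.6% in *Grk5*. This order is not that of the whole transcripts, as *Grk3* lies above *Arrb2* and *Grk6*. The stretches below show the paralogs where they are most alike, and how *Grk4* differs there. They are the 90 aligned coding bases with the most identities in each pair, from the transcripts of GENCODE M21 (GRCm38), 5′ to 3′, and capitals mark the bases that differ between the members of the pair.
Arrb1: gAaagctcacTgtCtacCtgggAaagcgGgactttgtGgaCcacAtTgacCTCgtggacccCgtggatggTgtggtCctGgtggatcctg
Arrb2: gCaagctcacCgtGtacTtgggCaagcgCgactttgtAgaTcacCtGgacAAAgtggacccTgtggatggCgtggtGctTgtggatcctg
Grk2: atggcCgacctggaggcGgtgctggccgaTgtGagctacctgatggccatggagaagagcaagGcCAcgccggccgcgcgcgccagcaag
Grk3: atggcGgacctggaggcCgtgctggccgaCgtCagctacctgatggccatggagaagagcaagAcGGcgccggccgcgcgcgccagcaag
Grk6: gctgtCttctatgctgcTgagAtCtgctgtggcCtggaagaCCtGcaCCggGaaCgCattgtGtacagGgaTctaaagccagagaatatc
Grk4: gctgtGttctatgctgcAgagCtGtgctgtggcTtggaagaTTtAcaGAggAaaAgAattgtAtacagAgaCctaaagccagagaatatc

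The β-arrestin pair has 73 of these 90 bases in common, *Grk2* and *Grk3* have 83, and *Grk6* and *Grk4* have 74. In the last pair the stretch has 52.2% GC in *Grk6* and 43.3% in *Grk4*. Over all aligned coding bases, 73.4% are identical between *Arrb1* and *Arrb2*, 74.7% between *Grk2* and *Grk3*, and 65.7% between *Grk4* and *Grk6*. The longest identical run in the whole coding sequence is 18 bases between *Arrb1* and *Arrb2*, 30 bases between *Grk2* and *Grk3*, and 23 bases between *Grk4* and *Grk6*, all shorter than the 100-base reads. Of the 100-base words in their transcripts, 0 occur in a transcript of another gene for 6 of the 7 genes. The exception is *Grk5*, with 81 of 7010 words in *Gm16284*, a processed pseudogene at chr1:8468426-8468825. The exons of *Arrb2* also overlap the microRNA gene *Mir7115* on the same strand by 64 bases, and reads from *Arrb2* and *Mir7115* cannot be told apart there.

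The level of each gene per length, given as TPM (counts scaled to the merged exon length and the library), spanned the family widely. *Arrb1* was the most abundant at 102.9 TPM ± 11.7 (SD, n = 12), followed by *Grk2* at 84.9 ± 22.4, *Arrb2* at 40.8 ± 8.69, *Grk6* at 33.5 ± 8.23, *Grk3* at 29.8 ± 3.71, *Grk5* at 13.5 ± 1.49, and *Grk4* at 3.93 ± 0.734. *Arrb1* was above *Grk2* in 10 of the 12 libraries and *Grk6* above *Grk3* in 8, so these neighbours did not separate beyond their spread. Each other neighbour in this order was higher in 12 of 12 libraries. *Grk4*, which is best known from testis and kidney, was thus the lowest but was counted in every library.

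**Figure D1:**
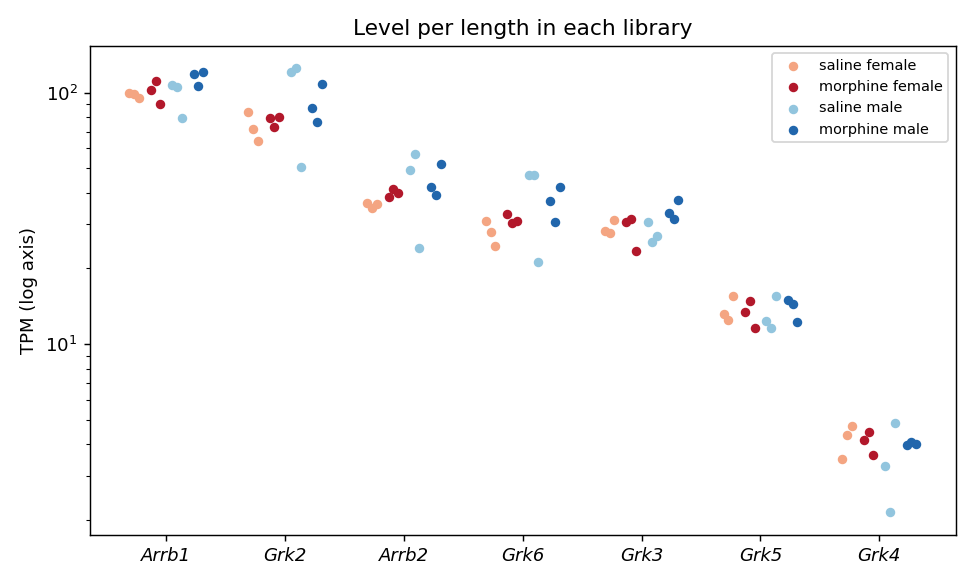
TPM over merged exon length (log axis) of the 7 genes in the 12 libraries, with 1 point per library coloured by treatment and sex and genes ordered by mean. *Arrb1* and *Grk2* are highest, *Grk6* and *Grk3* overlap, and *Grk4* is lowest at a mean of 3.93 TPM.

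*Arrb1* made up 71.8% ± 3.12 (SD, n = 12) of the TPM of both β-arrestins. The share was 71.7% ± 4.24 in saline mice and 72.0% ± 1.85 in morphine-exposed mice, with the lowest value, 64.9%, in saline male 2 and the highest, 76.7%, in saline male 3. *Grk2* made up 50.6% ± 4.60 of the TPM of the 5 kinases, 51.0% ± 6.33 in saline mice and 50.2% ± 2.48 in morphine-exposed mice. Here the order of those 2 libraries turned, with 59.2% in saline male 2 and 42.4% in saline male 3. The length used changes these values. Over coding length, *Arrb1* made up 89.98% of the β-arrestins and *Grk2* 39.5% of the kinases, and *Grk3* moved above *Arrb2* and *Grk6*. The counts there still covered all exons, so genes with long noncoding exon parts come out higher. *Arrb1* has 1431 coding bases in 11175 exon bases.

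The first comparison asked whether these genes differed between morphine-exposed and saline mice over both sexes. All 7 passed the filter on low counts. DE genes were those with an unadjusted p under 0.05 and a Log2FC past 0.26 in either direction, in the quasi-likelihood test of edgeR with sex as a covariate. Of the 7 genes, 0 were DE, where 1.19% of the 18608 genes tested were. Their Log2FCs ran from -0.10 to 0.07 with a median of 0.02, beside a median of -0.02 over all genes tested, and 4 of the 7 were positive. The 95% confidence interval of each of the 7 lay within a change of 1.5-fold in either direction. In females 0 of the 7 were DE, where 1.81% of 18109 genes were, and in males again 0, where 2.99% of 18166 genes were. The intervals lay within 1.5-fold for 7 of the 7 in females and for 3 of the 7 in males. Of the 7 genes, 0 were also DE in females without morphine female 2 (3.73% of all genes) or with no filter on low counts (3.15%), and in males with no filter (2.83%), under scaling by total counts (4.44%), or in the fit of all 12 mice (4.15%).

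**Figure D2:**
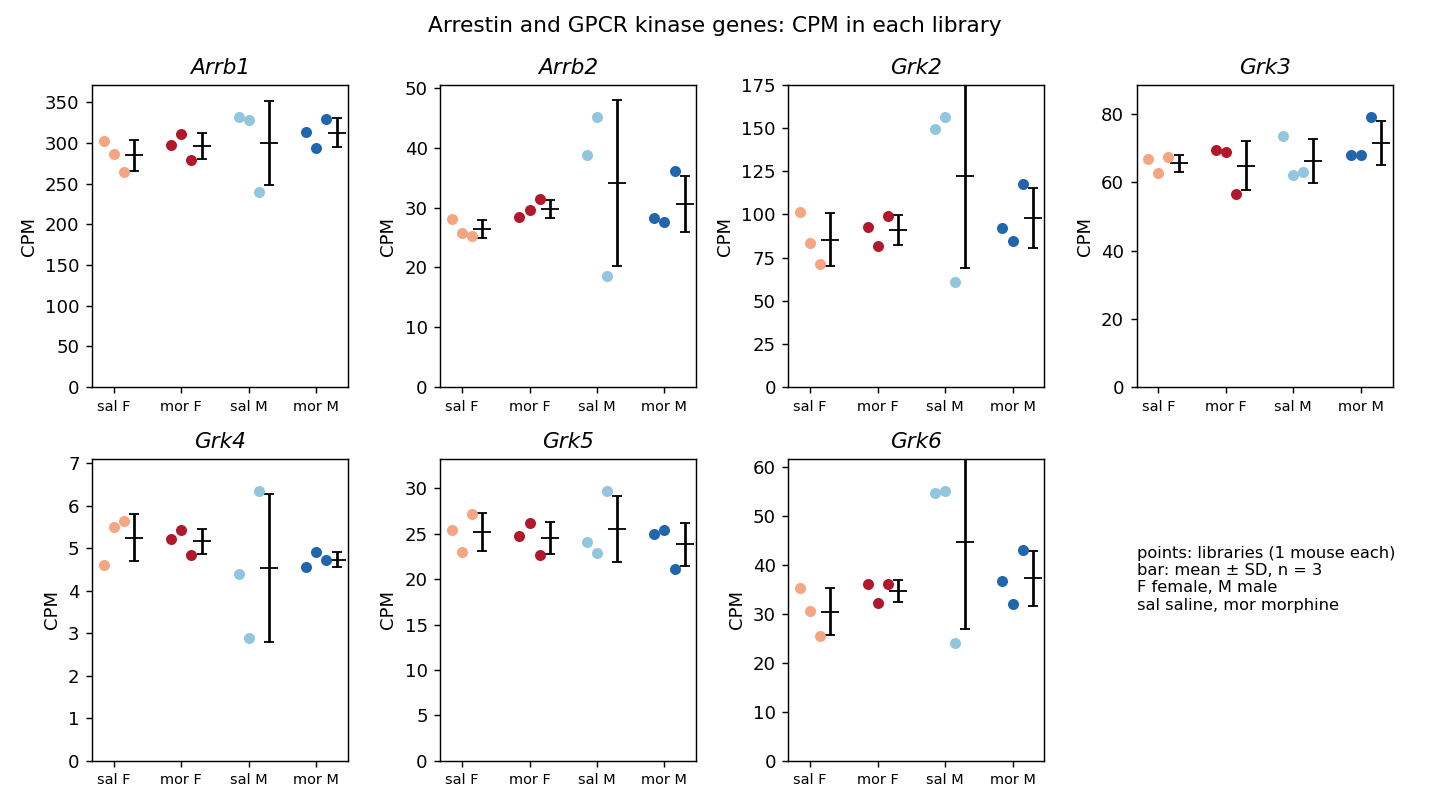
CPM of each gene in the 12 libraries (points), with the mean and SD of each group of 3 beside them. The saline males have the largest SD in each gene but *Grk3*, with *Grk2* between 61.0 and 156.3 CPM, and the other groups lie within that range for *Arrb2*, *Grk2*, *Grk4*, and *Grk6*.

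*Arrb1*, the more abundant β-arrestin (chr7:99535466-99606771, GRCm38), was at 302.4, 286.6, and 264.6 CPM in the saline females 4, 5, and 6 and at 297.3, 311.4, and 279.1 in the morphine females 1, 2, and 3. In the saline males 1, 2, and 3 it was at 331.3, 328.1, and 239.7 CPM, and in the morphine males 4, 5, and 6 at 313.3, 294.1, and 329.8. The groups overlapped in both sexes, and the lowest level was in saline male 3. Its Log2FC was 0.07 (SE 0.08, 95% CI -0.11 to 0.25) over both sexes, 0.05 (SE 0.08) in females, and 0.05 (SE 0.15) in males.

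*Arrb2*, the other β-arrestin and the isoform most studied at the μ opioid receptor (chr11:70432635-70440828), was at 28.1, 25.8, and 25.3 CPM in the saline females and at 28.4, 29.5, and 31.4 in the morphine females. These groups of females did not overlap, which was so for 5.65% of all genes tested in females. The Log2FC in females was 0.17 (SE 0.10, 95% CI -0.05 to 0.38, unadjusted p = 0.112), and *Arrb2* was not DE. In males the saline mice were at 38.9, 45.1, and 18.5 CPM and the morphine mice at 28.2, 27.6, and 36.05. The 3 morphine males thus lay between the saline males, which held the highest and the lowest level of the 12 libraries. The Log2FC was -0.16 (SE 0.32) in males and 0.02 (SE 0.17) over both sexes. No other member had groups that did not overlap within a sex, where 9.10% of genes did not overlap in males, and 0 of 7 did over both sexes, where 0.0430% of genes did not.

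*Grk2*, the most abundant kinase of the family and one that is drawn to the membrane by G protein βγ subunits (chr19:4286001-4306222), was at 101.6, 83.7, and 71.2 CPM in the saline females and at 92.9, 81.9, and 99.0 in the morphine females. In the saline males it was at 149.3, 156.3, and 61.0 CPM and in the morphine males at 91.96, 84.8, and 117.8. Saline male 3 was the lowest of all libraries and saline males 1 and 2 the highest, with the morphine males between them. The Log2FC was -0.10 (SE 0.20, 95% CI -0.52 to 0.33) over both sexes, 0.09 (SE 0.13) in females, and -0.32 (SE 0.34, 95% CI -1.13 to 0.49) in males.

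*Grk3*, its closest relative (chr5:112910482-113015791), did not share this spread. It was at 66.8, 62.7, and 67.3 CPM in the saline females and at 69.35, 68.8, and 56.5 in the morphine females. It was at 73.5, 62.0, and 63.0 CPM in the saline males and at 67.9, 67.8, and 79.0 in the morphine males. The groups overlapped in both sexes, and the highest level was in morphine male 6. The Log2FC was 0.06 (SE 0.08, 95% CI -0.12 to 0.24) over both sexes, -0.02 (SE 0.10) in females, and 0.11 (SE 0.14) in males.

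The kinases of the GRK4 subfamily are held at the membrane by lipids and do not use βγ subunits. *Grk6* (chr13:55445072-55460927), the most abundant of the 3, was at 35.2, 30.7, and 25.5 CPM in the saline females and at 36.1, 32.1, and 36.0 in the morphine females. It was at 54.5, 55.0, and 24.05 CPM in the saline males and at 36.7, 31.9, and 43.05 in the morphine males. The order of the male libraries was close to that of *Grk2*, with saline males 1 and 2 highest and saline male 3 lowest. The Log2FC was -0.02 (SE 0.18) over both sexes, 0.19 (SE 0.12, unadjusted p = 0.158) in females, and -0.26 (SE 0.32) in males.

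*Grk5* (chr19:60889749-61095968) was at 25.4, 23.0, and 27.15 CPM in the saline females and at 24.75, 26.2, and 22.6 in the morphine females. It was at 24.05, 22.9, and 29.7 CPM in the saline males and at 25.03, 25.4, and 21.1 in the morphine males. Saline male 3, the library with the least *Grk2* and *Grk6*, had the most *Grk5*. The Log2FC of *Grk5* was -0.06 (SE 0.10, 95% CI -0.27 to 0.15) over both sexes, -0.04 (SE 0.11) in females, and -0.11 (SE 0.17) in males.

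*Grk4* (chr5:34660379-34755305) was at 4.60, 5.50, and 5.63 CPM in the saline females and at 5.23, 5.42, and 4.84 in the morphine females. It was at 4.38, 2.89, and 6.34 CPM in the saline males and at 4.55, 4.92, and 4.72 in the morphine males. Saline male 2 had the least and saline male 3 the most, which is the reverse of their order for *Grk2*. The Log2FC of *Grk4* was 0.03 (SE 0.17, 95% CI -0.33 to 0.39) over both sexes, -0.03 (SE 0.16) in females, and 0.05 (SE 0.31) in males.

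**Figure D3:**
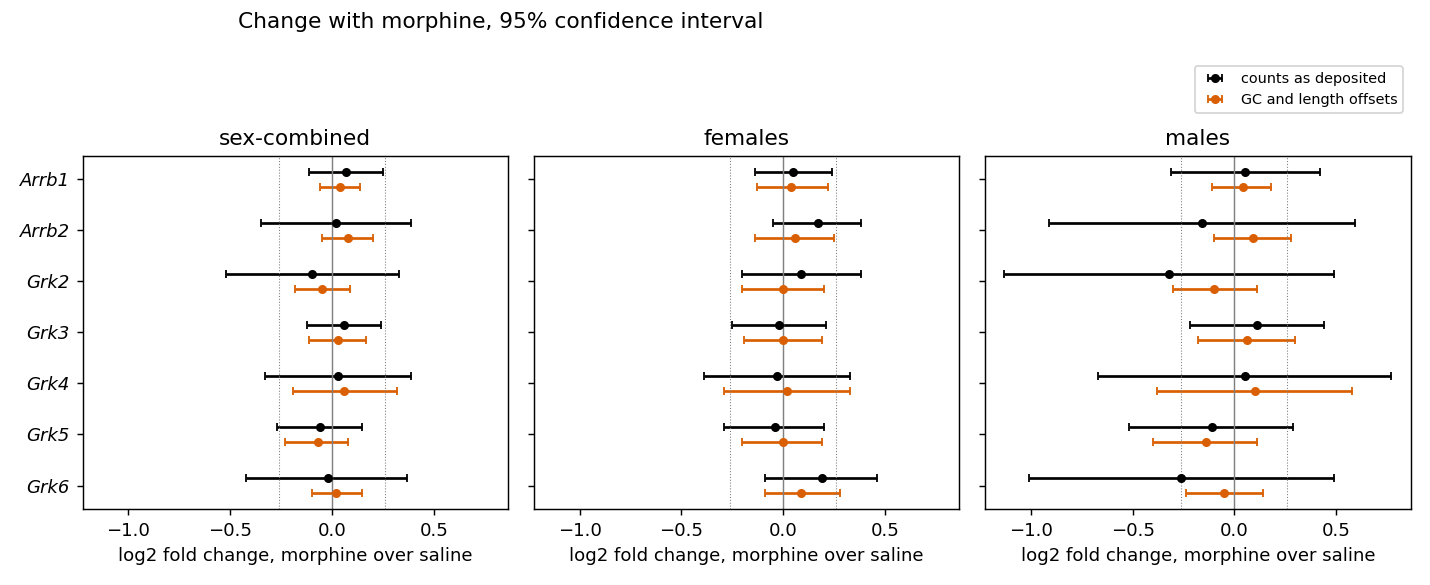
Log2FC of morphine over saline with 95% confidence intervals for the 7 genes over both sexes, in females, and in males, from the counts as deposited (black) and with offsets for GC content and length (orange), with dotted lines at 0.26 in either direction. Each interval includes 0, and with offsets the interval of *Grk2* in males narrows from -1.13 to 0.49 to -0.30 to 0.11.

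Whether the change differed between the sexes was tested by the interaction of treatment and sex. Of the 7 genes, 0 passed the thresholds, where 2.94% of 19027 genes did. The change in males minus that in females was lowest for *Grk6* (-0.43, SE 0.36, 95% CI -1.21 to 0.35), *Grk2* (-0.39, SE 0.39, 95% CI -1.25 to 0.46), and *Arrb2* (-0.31, SE 0.35), and lay between -0.05 and 0.14 for the other 4. The intervals of 3 of the 7 lay within 1.5-fold, and those of the other 4 reached past it. Males and females were also compared with treatment as a covariate, and 0 of the 7 passed, where 3.94% of 18608 genes did. Males over females, the Log2FC was 0.31 (SE 0.18) for *Grk6*, 0.30 (SE 0.20) for *Grk2*, and 0.19 (SE 0.17) for *Arrb2*. Without morphine male 6 these were 0.29 (SE 0.20), 0.26 (SE 0.22), and 0.15 (SE 0.19).

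In males the outcome for *Grk2*, *Grk6*, and *Arrb2* rested on saline male 3. Without it, the Log2FC in males was -0.60 (SE 0.15, unadjusted p = 0.00369) for *Grk2*, -0.52 (SE 0.14, unadjusted p = 0.00587) for *Grk6*, and -0.42 (SE 0.15, unadjusted p = 0.0227) for *Arrb2*, and these 3 of the 7 were DE. In the same fit 28.6% of 18652 genes were DE. The adjusted p of edgeR's quasi-likelihood test with Benjamini-Hochberg adjustment was 0.0393 for *Grk2*, 0.0507 for *Grk6*, and 0.107 for *Arrb2*. The saline group then consisted of the 2 libraries with the highest GC gaps. Without saline male 3 the same 3 genes passed in the interaction, where 24.1% of genes did, and in males over females, where 20.9% did. With morphine male 6 left out as well, the Log2FC in males was -0.78 (SE 0.09) for *Grk2*, -0.66 (SE 0.10) for *Grk6*, and -0.58 (SE 0.10) for *Arrb2*, and 41.0% of genes were DE. In that setting these 3 genes also passed in the interaction, where 30.7% of genes did, and in males over females, where 16.9% did. In females, *Grk6* passed without saline female 4 (0.29, SE 0.12, unadjusted p = 0.0377), where 7.95% of genes did.

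Offsets for the trend of each library on GC content and length were then added to the same fits, a setting chosen after the data were seen. In males the Log2FC of *Grk2* was then -0.10 (SE 0.09), that of *Grk6* -0.05 (SE 0.08), and that of *Arrb2* 0.09 (SE 0.08). Without saline male 3 and with offsets they were -0.16 (SE 0.07, unadjusted p = 0.0543), -0.08 (SE 0.08), and 0.05 (SE 0.07), and 0 of the 7 were DE, where 18.4% of genes were. With offsets 0 of the 7 passed over both sexes (1.64% of genes), in females (1.83%), in males (6.46%), in the interaction (5.52%), or between the sexes (2.58%). Males over females, the Log2FC with offsets was 0.05 (SE 0.06) for *Grk6*, 0.02 (SE 0.06) for *Grk2*, and -0.05 (SE 0.06) for *Arrb2*. The SE over both sexes fell from 0.20 to 0.06 for *Grk2*, from 0.18 to 0.06 for *Grk6*, and from 0.17 to 0.06 for *Arrb2*. The intervals of 7 of the 7 in males and of 6 of the 7 in the interaction then lay within 1.5-fold.

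**Figure D4:**
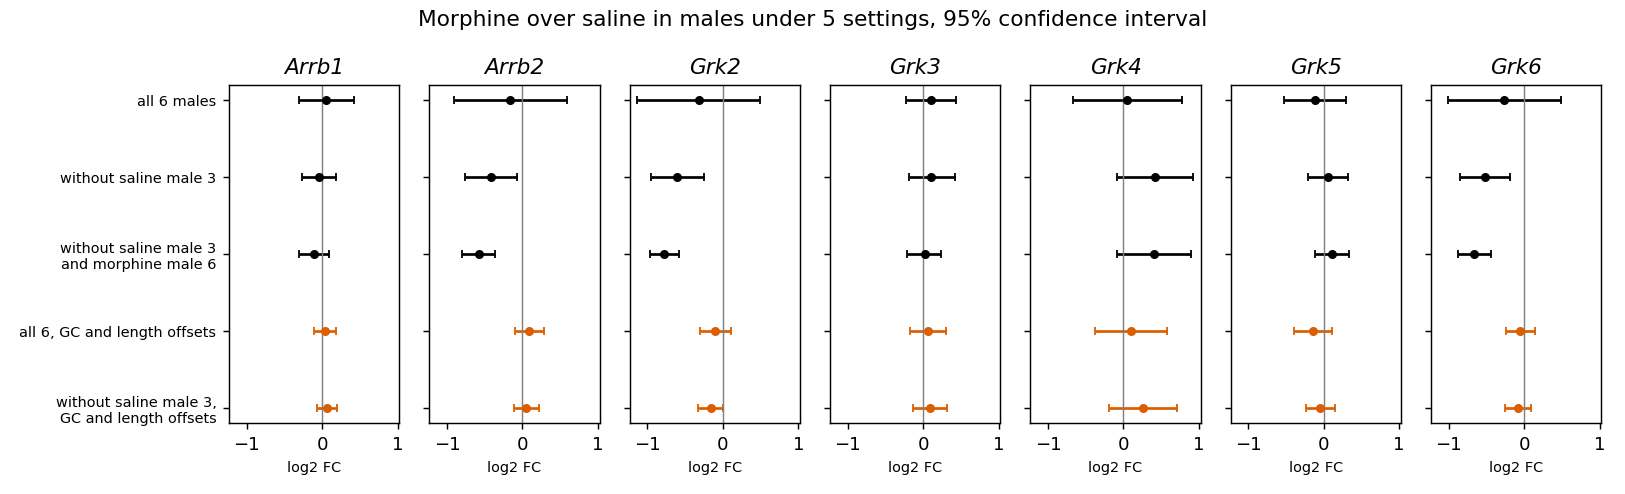
Log2FC of morphine over saline in males with 95% confidence intervals for each gene under 5 settings, from the counts as deposited (black) and with GC and length offsets (orange). Without saline male 3, *Grk2* (-0.60), *Grk6* (-0.52), and *Arrb2* (-0.42) lie below 0, and with offsets in the same libraries they lie at -0.16, -0.08, and 0.05.

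Of the 13 marker lists, those of neurons, astrocytes, and cerebellar granule cells had summed levels that did not overlap between the treatments in males. Among single genes, 9.10% did not overlap in males. The summed level of 5 neuronal markers was between 4043 and 4862 CPM in saline males and between 3701 and 3984 in morphine males, and that of 4 astrocyte markers between 2003 and 2142 and between 1836 and 1894. The 3 markers of cerebellar granule cells lay the other way, between 21.9 and 24.2 CPM in saline males and between 32.1 and 64.3 in morphine males. In females each of these lists overlapped. Neuronal markers were between 4072 and 4491 CPM in saline females and between 3850 and 4385 in morphine females. Astrocyte markers were between 2029 and 2253 and between 1946 and 2388. Granule cell markers were between 15.8 and 31.7 and between 23.3 and 31.8. Markers of the choroid plexus, which can be carried along or left behind in a dissection, ranged from 1.40 to 787 CPM over the 12 libraries, those of red blood cells from 101.1 to 426.6, and those of neutrophils from 1.66 to 12.6. Saline male 2 was the highest library for 4 markers each of oligodendrocytes (54960 CPM), microglia (184.3), endothelium (207), and meningeal fibroblasts (149.2). It also had the highest GC gap (0.95), and saline male 3, with the lowest gap (-0.98), had the lowest endothelial sum (145.8 CPM). Within that list, *Cldn5* ran from 14.1 to 61.6 CPM over the 12 libraries. *Pecam1* ran from 30.4 to 39.2 CPM, *Flt1* from 76.1 to 95.3, and *Cdh5* from 17.55 to 26.1. The part of these cells in the levels of the arrestin and kinase genes was not tested, nor was that of the GC gap in the marker sums. In whole tissue fewer cells of a type and less RNA per cell cannot be told apart.

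Most of the 7 genes varied together across mice in opposed sets, as many other genes did with them. Over the 12 libraries, *Grk2* and *Grk6* had Pearson's r of 0.99 and Spearman's rho of 0.91 (log2 CPM, permutation p = 1e-05 and 0.00012), where 1e-05 is the smallest p that 100000 resamples can give. *Arrb2* had an r of 0.95 with *Grk2* (rho 0.85) and of 0.94 with *Grk6* (rho 0.92), and *Arrb1* an r between 0.84 and 0.86 with these 3. *Grk4* ran against them, with an r of -0.86 with *Grk2* (rho -0.90), -0.86 with *Arrb2* (rho -0.78), and -0.85 with *Grk6* (rho -0.90). *Grk3* had an r between -0.14 and 0.52 with the other 6.

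Of the 21 pairs, 14 had an adjusted permutation p under 0.05 for r (6 positive and 8 negative) and 13 for rho. The share of all gene pairs that pass was not computed. Among 13602 genes, r with *Grk2* was over 0.9 for 2760 and under -0.9 for 673. Within groups, after the group means were taken out, *Grk2* and *Grk6* had an r of 0.99 and *Arrb2* and *Grk2* 0.96. Without the 2 libraries farthest from the median of the first gene, r was 0.97 for *Grk2* with *Grk6* and 0.92 for *Arrb2* with *Grk2*. For *Arrb1* with *Grk5* it went from -0.67 (rho -0.48, permutation p = 0.0164 and 0.122) to -0.16 without saline male 3 and saline female 6, so that relation rests on these libraries. Without the 3 saline males, *Grk2* and *Grk6* had an r of 0.95 and *Grk2* and *Grk4* -0.76.

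The same sets followed the GC gap of the libraries, a relation examined after the data were seen. Over the 12 libraries, r with the gap was 0.99 for *Grk2* (rho 0.94), 0.98 for *Grk6* (rho 0.97), 0.98 for *Arrb2* (rho 0.94), and 0.88 for *Arrb1* (rho 0.81). It was -0.87 for *Grk4* (rho -0.92), -0.76 for *Grk5* (rho -0.73), and 0.26 for *Grk3* (rho 0.17). The permutation p adjusted over the 7 relations was between 2.33e-05 and 0.00616 for r in 6 of them and 0.423 in *Grk3*. Without saline males 2 and 3, which were farthest from the median gap, r was 0.98 for *Grk2* and -0.80 for *Grk4*. *Grk2*, *Grk6*, *Arrb2*, and *Grk4* are themselves among the genes whose medians define the gap.

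**Figure D5:**
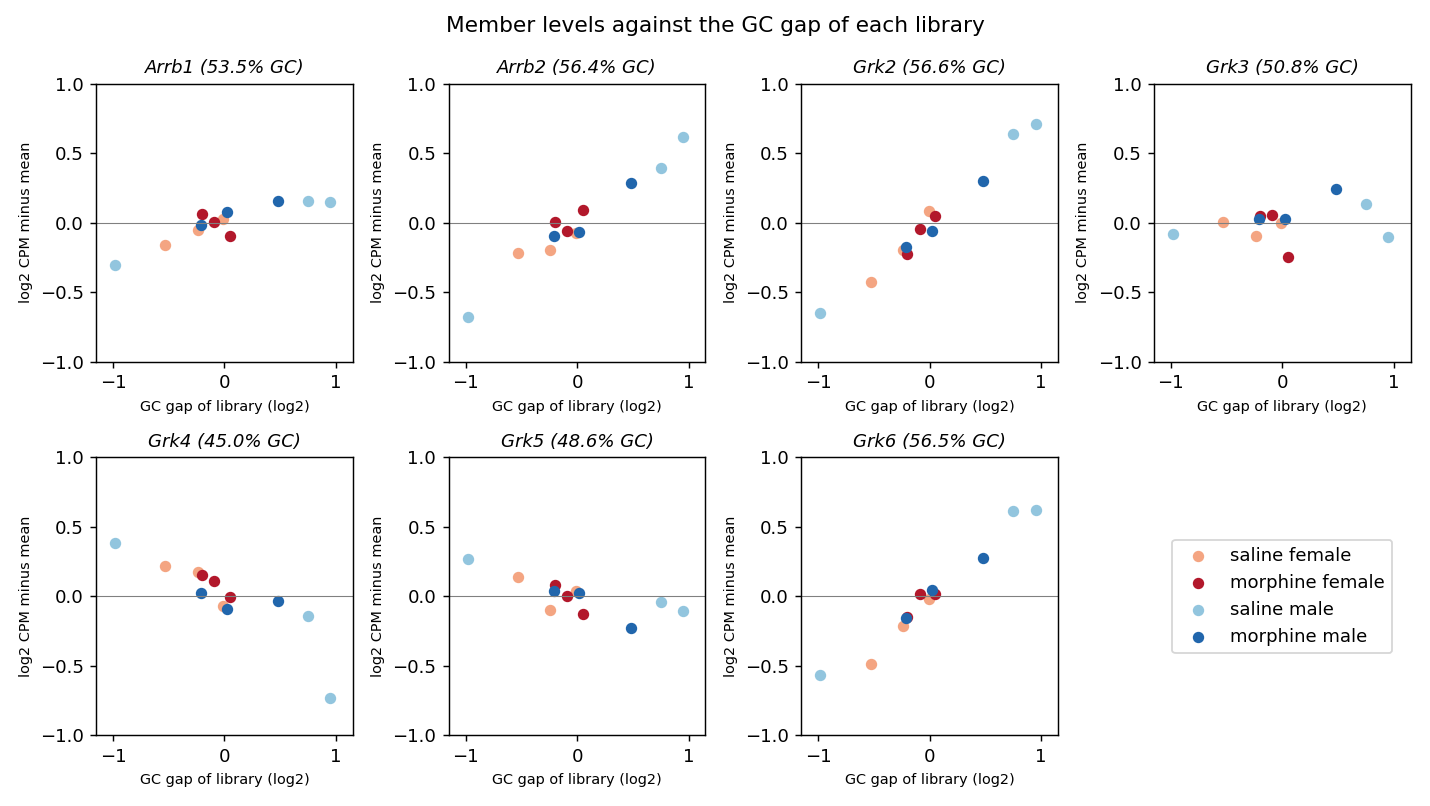
Level of each gene (log2 CPM minus its mean over the 12 libraries) against the GC gap of the library (log2), coloured by treatment and sex. Each title gives the GC content of the gene's transcripts. *Grk2*, *Grk6*, and *Arrb2* rise along the axis with r of 0.98 or 0.99, *Grk4* and *Grk5* fall, and *Grk3* has an r of 0.26.

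Between libraries, *Grk2* was among the more variable genes, with an SD of 0.40 (log2 CPM) that exceeded the SD of 80.1% of genes, whereas *Grk3* had an SD of 0.12 that exceeded 11.9%, and the median over all genes was 0.23. When the trend on GC content and length was taken out of each library, the fold range over the 12 libraries went from 2.56 to 1.22 in *Grk2*, from 2.43 to 1.22 in *Arrb2*, from 2.29 to 1.25 in *Grk6*, and from 2.17 to 1.64 in *Grk4*. It went from 1.38 to 1.17 in *Arrb1*, from 1.40 to 1.30 in *Grk3*, and from 1.41 to 1.36 in *Grk5*. Of the 21 pairs, 0 then had an adjusted permutation p under 0.05, and 2 had an unadjusted p under 0.05 for r. *Grk2* and *Grk6* kept the highest r of the pairs, 0.75 (rho 0.77, adjusted permutation p = 0.0586 for r).

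The genes whose levels were most like those of each member over the 12 libraries were, with Pearson's r of log2 CPM among 13602 genes, *Kcnab2* (0.997) and *Ndufv1* (0.997) for *Grk2*, *Atg2a* (0.997) and *Atg101* (0.996) for *Grk6*, and *Rab40c* (0.990) and *Slc29a2* (0.987) for *Arrb2*. These 6 genes have between 56.2% and 59.2% GC. An r over 0.9 was found for 2760 genes with *Grk2*, 2646 with *Grk6*, and 2267 with *Arrb2*. An r under -0.9 was found for 673, 544, and 674 genes. *Arrb1* was nearest to *Lrwd1* (0.973) and *Hmgxb3* (0.970), with 298 genes over 0.9 and 302 under -0.9. *Grk5* was nearest to *Hecw1* (0.949) and *Cast* (0.931), with 24 genes over 0.9 and 3 under -0.9. *Grk4* was nearest to *Ttpal* (0.924) and *Pank2* (0.919), with 10 over 0.9 and 132 under -0.9. For *Grk3* the nearest were *Dnase1* (0.866) and *Tk1* (0.845), and 0 genes exceeded 0.9.

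Other genes of the pathway were taken from a list of 54 in 7 roles. Over both sexes and in females 51 were tested and 0 were DE, where 1.19% and 1.81% of all genes tested were. In males 50 were tested and 0 were DE, where 2.99% of all genes were. The median Log2FC of the list was -0.03 over both sexes, 0.03 in females, and -0.14 in males, beside -0.02, -0.01, and -0.06 over all genes tested. By role, the medians in males were -0.13 for the 11 genes of clathrin, AP-2, and dynamin, which pull receptors into vesicles, -0.20 for the 11 genes of endosomal sorting, which send receptors back to the surface or to lysosomes, and -0.06 for the 10 arrestin partners. They were -0.18 for the 8 regulators and scaffolds of GRKs that were tested and -0.11 for the 5 α-arrestins, and they were 0.07 for the 4 opioid receptors and 0.15 for the retinal arrestin *Arr3*, the tested retinal relative. In females the medians were 0.05 for clathrin, AP-2, and dynamin, 0.01 for endosomal sorting, and 0.03 for the arrestin partners. There they were 0.09 for the regulators and scaffolds of GRKs, 0.04 for the α-arrestins, -0.06 for the opioid receptors, and 0.20 for the 2 retinal relatives tested. With offsets the median of the list in males was -0.03. By role it was then -0.12 for the regulators and scaffolds of GRKs and -0.10 for endosomal sorting. It was -0.01 for clathrin, AP-2, and dynamin and -0.01 for the arrestin partners. It was 0.12 for the α-arrestins, 0.11 for the opioid receptors, and 0.21 for *Arr3*. The mean level of *Arr3* was only 0.28 CPM in saline males and 0.31 in morphine males. Its Log2FC in males without offsets had an SE of 0.39. The retinal kinase *Grk1* was too low to be tested in each of the 3 fits.

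Of the 4 opioid receptor genes, 0 were DE. *Oprm1*, the μ opioid receptor and the main target of morphine, was at 3.57 CPM ± 1.20 (SD, n = 3) in saline females, 3.36 ± 1.04 in morphine females, 2.92 ± 0.80 in saline males, and 3.61 ± 1.08 in morphine males. Its Log2FC was 0.12 (SE 0.24) over both sexes. The Log2FC over both sexes was -0.02 (SE 0.10) for *Oprd1*, the δ opioid receptor, -0.02 (SE 0.13) for *Oprk1*, the κ opioid receptor, and 0.05 (SE 0.07) for *Oprl1*, the nociceptin receptor. The group means of *Oprd1* lay between 9.86 and 12.8 CPM, those of *Oprk1* between 13.6 and 14.85, and those of *Oprl1* between 90.4 and 93.5.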

How the data were processed

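Brainstem RNA of 12 mice was sequenced by the authors as 100 bp single-end reads, preprocessed with scruff, trimmed with Trimmomatic, aligned to mm10 with STAR, and counted with featureCounts over the exons of an Ensembl GRCm38 annotation. The strand setting is not given in the sources used here. The deposited values are raw counts per gene by the authors, as whole numbers. Groups came from the labels. The 7 genes, the pathway and marker lists, and the tests were chosen with earlier results of these data known.

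Each comparison was fitted over all genes in edgeR 4.0.16 (R 4.3.3) by its quasi-likelihood method, after filterByExpr and TMM scaling, and p-values were adjusted by Benjamini-Hochberg over all genes tested. The thresholds (p under 0.05, Log2FC past 0.26) follow the study's. With 1 library per mouse, these p-values measure the spread between mice and that between libraries together. *Grk4* had between 132 and 207 counts per library, so counting error adds to its spread. Levels are CPM with TMM factors over the 12 libraries, with a prior count of 2 on the log2 scale, and TPM used merged exon lengths of GENCODE M21, in which 55418 of 55418 symbols were found. Pairs of genes were compared with 100000 seeded permutations (two-sided, numpy 2.4.6, scipy 1.17.1). Offsets were loess fits (span 0.5) of each library's deviations on GC content and log2 length.

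The named genes are the 7 members, pathway genes that were DE (0 were), the 4 opioid receptors, the 2 genes most like each member among genes of at least 1 CPM (predicted genes left out), and sex genes. Alternatives were exactTest, DESeq2 1.42.0, its size factors in edgeR, total counts, other count filters, no sex covariate, a replicate block, a fit of all 12 mice, and leaving out mice. Scripts were tested on simulated data. The number of sample columns that matched no label was 0. Same-numbered mice did not deviate together (correlations between -0.36 and 0.18), so replicate numbers were not treated as pairs. The marker genes *Slc6a5*, *Tph2*, *Dbh*, *Cldn5*, *Pecam1*, *Flt1*, and *Cdh5* were named after their values were seen, as were the retinal genes *Grk1* and *Arr3*. Of the marker lists, 1 other gene is not named or reported on its own here.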

Additional observations from a re-analysis of the deposited data

How the results depend on the processing

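Over both sexes 0 of the 7 genes were DE under each alternative. Without saline male 3 and morphine male 6, 3 were DE in males (41.0% of all genes), 3 in the interaction (30.7%), and 3 in males over females (16.9%). Leaving out each mouse in turn gave 0 to 1 DE members in females (1 without saline female 4, 7.95% of all genes). It gave 0 to 3 in males, in the interaction, and between the sexes. The 3 came without saline male 3, where 28.6%, 24.1%, and 20.9% of all genes were DE. The pathway list held 0 DE genes over both sexes, 0 to 5 in females (5 without saline female 4, where 7.95% of all genes were DE, and 2 without morphine female 2, where 3.73% were), and 0 to 24 in males (24 without saline male 3, where 28.6% were). With no filter it held 1 in females (3.15% of all genes) and 1 in males (2.83%). In males it held 3 under total counts (4.44% of all genes), 1 in the fit of all 12 mice (4.15%), 1 with GC and length offsets (6.46%), 8 with offsets and without saline male 3 (18.4%), and 27 without saline male 3 and morphine male 6 (41.0%). Of the 21 pairs, 9 to 15 passed when each mouse was left out and 0 passed with the GC and length trend removed. With counts over all exons divided by coding length, *Arrb1* held 89.98% of the β-arrestins and *Grk2* 39.5% of the kinases. Over merged exons, leaving out each library gave 71.4% to 72.4% and 49.8% to 51.4%.

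Some Log2FCs of genes that were not DE changed sign, and the cause was not tested. Over both sexes, *Grk6* was at 0.03 under total counts, 0.02 under the replicate block, and 0.02 with offsets. Without saline male 3 and morphine male 6, *Arrb1* was at -0.02, *Arrb2* at -0.14, *Grk3* at -0.01, and *Grk5* at 0.01. In females with offsets, *Grk2* was at 0.00, *Grk3* at 0.00, and *Grk4* at 0.02. In males, *Grk5* was at 0.01 under total counts, *Arrb1* at -0.11 and *Grk5* at 0.11 without saline male 3 and morphine male 6, and *Arrb2* at 0.09 with offsets and 0.05 with offsets and without saline male 3. In the interaction, *Arrb1* was at 0.00 with DESeq2 and with its size factors, -0.18 without both libraries, and -0.01 with offsets, *Grk5* at 0.05 under total counts and 0.13 without both libraries, and *Arrb2* at 0.03 with offsets, from -0.31. Between the sexes with offsets, *Arrb1* was at -0.08 (from 0.07) and *Arrb2* at -0.05 (from 0.19).

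Leaving out each mouse over both sexes gave -0.01 to 0.10 for *Arrb1*, -0.11 to 0.14 for *Arrb2*, -0.24 to 0.01 for *Grk2*, -0.09 to 0.15 for *Grk4*, and -0.15 to 0.08 for *Grk6*. In females it gave -0.01 to 0.22 for *Grk2*, -0.07 to 0.07 for *Grk3*, -0.12 to 0.04 for *Grk4*, and -0.10 to 0.03 for *Grk5*. In males it gave -0.04 to 0.15 for *Arrb1*, -0.42 to 0.08 for *Arrb2*, -0.20 to 0.42 for *Grk4*, and -0.20 to 0.05 for *Grk5*. In the interaction it gave -0.13 to 0.10 for *Arrb1*, -0.15 to 0.41 for *Grk4*, and -0.14 to 0.06 for *Grk5*, and between the sexes -0.06 to 0.03 for *Grk5*. The replicate block moved the DE genes over both sexes from 221 to 204 and called 0 of the 7, and within a sex no paired analysis was possible because the groups share no replicate numbers. In males the median Log2FC of all genes was -0.06 under TMM and 0.06 under total counts, and DE genes went from 349 higher and 194 lower to 737 higher and 70 lower.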
